A study of Mus musculus with 8 samples.

Results

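Endothelins are short secreted peptides made from longer precursors. Proprotein convertases cut the precursor, endothelin-converting enzymes release the active peptide, and the peptide signals through a pair of G protein-coupled receptors on the target cell. In skin the peptides are known as keratinocyte products that act on melanocytes, the pigment cells, and the receptor encoded by Ednrb is needed for melanocytes and their neural crest precursors to survive and spread. Its partner encoded by Ednra is best known from vascular smooth muscle and connective tissue cells, and it prefers the first 2 peptides, whereas the Ednrb product binds all 3. The 7 genes described here are the 3 ligand genes Edn1, Edn2 and Edn3, the 2 receptor genes Ednra and Ednrb, and the 2 converting enzyme genes Ece1 and Ece2. They were taken by symbol from a table of 24421 genes, and each had 1 entry.

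The RNA came from back skin of 4 C57BL/6J mice that carried the ROSA mTmG reporter and Tyr:CreERT2, and every group shared this genotype and the same tamoxifen course of 10 daily injections from day 21. Hair was shaved and depilated on day 50. Mice 3 and 4 then received UVB at 150 mJ/cm2 for 3 days, mice 1 and 2 were mock treated under normal light, and skin was taken from all of them on day 54. From each mouse, EGFP+ cells, labelled as melanocytes, and tdTomato+ cells, labelled as the other cells of the skin, were sorted and sequenced, which gave 4 groups of 2 libraries: EGFP+ and tdTomato+ cells without and with UV. In mTmG mice every cell carries membrane tdTomato until Cre recombinase switches it to membrane EGFP. Here Cre is driven by a promoter of the tyrosinase gene, so a melanocyte that Cre had not switched stays among the tdTomato+ cells.

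The 8 libraries held 11186363 to 16711981 reads assigned to genes. The labels fitted the cells: all 5 melanocyte markers (Dct, Tyr, Tyrp1, Pmel, Mlana) were higher in EGFP+ cells, where they summed to 513514 to 600334 normalized reads, and all 7 keratinocyte markers were lower, summing to 575 to 846 there against 204160 to 301889 in tdTomato+ cells. The melanocyte markers were not absent from tdTomato+ cells, with sums of 5345 and 2317 in mice 1 and 2 and of 22587 and 43689 in mice 3 and 4. Mouse 1 alone had Xist reads (397 and 1079 normalized reads, against at most 3.71 in any library of the other mice) and almost none of the Y-linked Ddx3y. The labels give no sex, and mouse 1 is 1 of the 2 mock-treated mice. For the 7 genes, test results without it are therefore given where they change a call or move by more than 1.5 times. For other genes they are not given.

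The 3 ligands are shown first because their active peptides are so alike. The following stretches, 63 bases each, code for the active peptide, from the first cysteine codon to the tryptophan codon, and were found in the GENCODE M21 transcripts (GRCm38) by the spacing of the 4 cysteine codons. Capitals mark the positions at which the 3 genes do not all have the same base.
Edn1: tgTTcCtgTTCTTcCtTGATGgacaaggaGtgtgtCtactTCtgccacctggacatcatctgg
Edn2: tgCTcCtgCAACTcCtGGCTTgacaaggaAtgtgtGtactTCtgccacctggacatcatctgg
Edn3: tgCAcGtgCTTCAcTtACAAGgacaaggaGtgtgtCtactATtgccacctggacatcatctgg

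Of the 63 bases, 45 were the same in all 3 genes and 18 differed. Edn1 and Edn2 shared 53 bases, Edn1 and Edn3 shared 50, and Edn2 and Edn3 shared 48. The differing bases lie mostly in the first part of the stretch, and the last part, which codes for the end that contacts the receptors, was the same in all of them.

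In GRCm38, with GENCODE M21, Edn1 lies at chr13:42301476-42307990 on the plus strand, Edn2 at chr4:120161206-120167360 on the plus strand and Edn3 at chr2:174760619-174784042 on the plus strand. Ednra lies at chr8:77663031-77724464 and Ednrb at chr14:103814625-103844402, both on the minus strand, while Ece1 (chr4:137862237-137965229) and Ece2 (chr16:20629828-20646485) are on the plus strand. The values are per gene, so exons, introns and single transcripts cannot be read apart. The library kit does not mark strand, so for Edn1, Ednra and Ece1 reads from an overlapping gene on the opposite strand (Gm47118, 4933431K23Rik and Gm13012) cannot be told from their own. Ece2 overlaps Gm49333 on its own strand. None of these 4 neighbours is in the table under that name, and the Ece2 level in particular is uncertain for this reason.

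The values below are normalized reads, that is, whole reads of a gene divided by a size factor of the library. In tdTomato+ cells Edn1, the classical endothelin of endothelium and keratinocytes, stood at 247 and 258 normalized reads in mice 1 and 2 and at 110 and 95.5 in mice 3 and 4. In EGFP+ cells it had 1 read in mouse 1, 1 in mouse 3 and none in mice 2 and 4. Every tdTomato+ library was far above every EGFP+ library, and within the tdTomato+ cells both UV libraries lay below both mock libraries. The log2 difference between EGFP+ and tdTomato+ cells, on the scale of log2(normalized reads + 1), was -6.90 ± 0.71 (SE; limma, Benjamini-Hochberg adjusted p = 0.000202, n = 4 libraries per population). Over 657 reads against 2, tdTomato+ cells had 369 times the level, with a 95% exact conditional binomial interval of 102 to 3054 that covers counting error only.

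Edn2, a ligand best known from ovary and intestine, was the most abundant ligand per length. It stood at 531 and 664 normalized reads in tdTomato+ cells of mice 1 and 2 and at 248 and 311 in those of mice 3 and 4. No read of it was found in the 4 EGFP+ libraries, which hold 13288698 to 16200359 reads each. With 1614 reads against 0 it was at least 604.5-fold lower in EGFP+ cells, allowing up to 3 reads in that whole population. The 95% exact conditional binomial interval started at 491-fold, and both figures cover counting error only. limma gave an adjusted p of 3.52e-05 (n = 4 libraries per population). The 3 ligands reached the mean of at least 1 needed for testing in tdTomato+ cells only. Their p-values are therefore no separate support for the direction.

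Edn3 is the ligand whose loss leaves mice spotted, through missing melanocytes and enteric neurons. Its 4 tdTomato+ values were 9.78 and 114 without UV and 0.92 and 16.7 with UV, and it had no read in any EGFP+ library. The spread inside each arm was wide: mouse 2 was high, mouse 3 had a single read, and the UV and mock libraries overlapped. With 109 reads in tdTomato+ cells it was at least 40.8-fold lower in EGFP+ cells, again allowing up to 3 reads there. The 95% exact conditional binomial interval started at 32.6-fold, and both figures cover counting error only. Mouse 2 gave 80 of these reads, and the bound from the remaining 29 was 13.2-fold. limma gave an adjusted p of 0.0212 (n = 4 libraries per population). The log2 difference was -3.84 ± 1.01. The call was lost without mouse 1 (-4.69, adjusted p = 0.101) and in 5 of the 8 fits that left out 1 library, where the difference ran from -4.69 to -2.99 over all 8 and adjusted p reached 0.109.

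**Figure D1:**
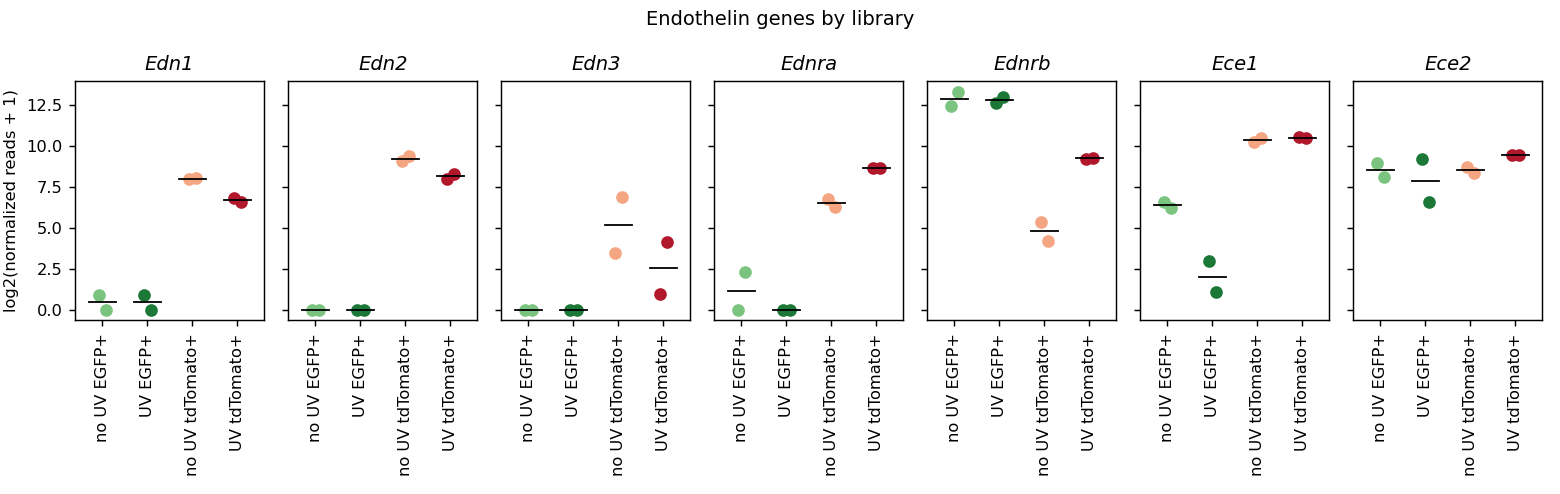
Level of each endothelin gene in every library, as log2(normalized reads + 1), in EGFP+ and tdTomato+ cells without and with UV. Each point is 1 library and the bar is the mean of the 2 libraries of a group. Edn1, Edn2, Edn3, Ednra and Ece1 sit higher in tdTomato+ cells, Ednrb sits higher in EGFP+ cells, and Ednrb stands out in tdTomato+ cells with UV.

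The receptors divided between the populations. Ednra, which binds the Edn3 peptide only weakly, had 105 and 77.1 normalized reads in tdTomato+ cells of mice 1 and 2 and 401 and 404 in those of mice 3 and 4. In EGFP+ cells it had 4 reads in all, every one of them in mouse 2. The populations did not overlap, and both UV libraries of tdTomato+ cells lay above both mock ones. The difference between EGFP+ and tdTomato+ cells was -7.02 ± 0.77 on the log2 scale (limma, adjusted p = 0.000282, n = 4 libraries per population) and -6.34 without mouse 1 (adjusted p = 0.0113).

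Ednrb, the melanocyte receptor of this pathway, went the other way. EGFP+ cells held 5522 and 9951 normalized reads in mice 1 and 2 and 6273 and 7873 in mice 3 and 4, while tdTomato+ cells held 40.1 and 17.1 without UV and 586 and 605 with UV. Its level in EGFP+ cells was among the highest of all genes, ranking between 160 and 424 of 24394 genes by normalized reads, uncorrected for length. The lowest EGFP+ library was still far above the highest tdTomato+ library. EGFP+ cells were higher by 5.82 ± 0.29 on the log2 scale (limma, adjusted p = 4.67e-06, n = 4 libraries per population). Counted by reads, the ratio was 247 without UV (95% counting interval 189 to 329) and 11.7 with UV (11.1 to 12.4). These intervals cover counting error only, and the mice differed by more: the ratio of normalized reads was 138 in mouse 1 and 581 in mouse 2, and 10.7 in mouse 3 and 13.0 in mouse 4.

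The 250 bases upstream of the RefSeq start of Ednrb (GRCm38.p6 promoter table, chr14:103843702-103843951, minus strand) are printed because Ednrb was the member that differed both between the populations and with UV.
Ednrb: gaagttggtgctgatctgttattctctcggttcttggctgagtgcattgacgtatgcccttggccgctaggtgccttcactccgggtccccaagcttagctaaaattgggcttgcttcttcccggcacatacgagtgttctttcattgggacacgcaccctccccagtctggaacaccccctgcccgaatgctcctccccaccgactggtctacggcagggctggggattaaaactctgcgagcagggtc

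This stretch is 56.8% G and C. In GENCODE M21 it lies in an intron of Ednrb-201 and upstream of the start of Ednrb-202 and Ednrb-203, and the data do not tell which start was used. A search on both strands of windows from 250 bases before to 50 after each start looked for 8 motifs, none of which overlaps another in these windows. They were the TATA box TATAAA (in 13.6% of 32851 such windows), the E-boxes CATGTG (14.2%) and CACGTG (7.15%), the SOX-type ACAAAG (18.7%) and ACAATG (12.6%), the AP-1-type TGACTCA (5.20%) and TGACTAA (2.35%), and the GATA-type AGATAA (11.2%). All 7 genes had a window, 10 windows in all with 4 for Ece1. The Ednrb window held none of these letters, and neither did those of Edn2, Edn3, Ednra and Ece2. The Edn1 window held TGACTAA 37 bases and the reverse of AGATAA 9 bases after its start. Of the Ece1 windows, the one at chr4:137913308-137913607 held CACGTG at position -90 and the reverse of ACAATG at position -172 from its start.

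Ece1 makes the membrane metallopeptidase that releases active endothelin from its inactive precursor. It stood at 1195 and 1409 normalized reads in tdTomato+ cells of mice 1 and 2 and at 1496 and 1389 in those of mice 3 and 4. EGFP+ cells had 94.0 and 71.3 without UV and 6.71 and 1.08 with UV. All tdTomato+ libraries were alike and high, and the EGFP+ libraries fell into a low mock pair and a still lower UV pair. The difference between EGFP+ and tdTomato+ cells was -6.23 ± 0.44 on the log2 scale (limma, adjusted p = 2.65e-05, n = 4 libraries per population).

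Ece2, a related peptidase that works best at acidic pH, did not separate the populations. EGFP+ cells had 495 and 272 normalized reads without UV and 579 and 92.7 with UV, and tdTomato+ cells had 414 and 324 without UV and 678 and 682 with UV. The ranges overlapped, and mouse 4 had the lowest EGFP+ value. That library also had the fewest genes with a read, 11186 against 14503 to 15867 in the other EGFP+ libraries. Its part in the Ece2 values was not tested. The difference between the populations was -0.77 ± 0.52 on the log2 scale with a 95% interval of -1.96 to 0.42 (limma, adjusted p = 0.312, n = 4 libraries per population). Without the EGFP+ library of mouse 3 it became -1.43, with an adjusted p of 0.00502.

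Of the 7 genes, 1 was called higher and 5 lower in EGFP+ cells. Over all 18046 genes tested, 28.8% were called, 9.63% higher and 19.2% lower (1738 and 3468 genes), and the median log2 difference was -0.34 against -6.23 over the 7 genes. The split of all called genes shifted with the scaling, to 2614 higher and 2667 lower after quantile normalization and to 2651 and 2886 after rescaling without the 20 most abundant genes, while each of the 7 members kept its direction. All 7 passed the filter on low values, a mean of at least 1 in some group. Edn1, Edn2 and Edn3 passed it only through tdTomato+ cells, so they could enter the test only by being higher there. In bulk libraries like these, fewer cells of a type and less RNA per cell cannot be told apart. The authors' deposited table, which compares the same populations over all 8 libraries with DESeq2, gave the same directions, with a log2 fold change of 4.37 for Ednrb (adjusted p = 6.39e-07) and of -0.53 for Ece2 (adjusted p = 0.468).

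**Figure D2:**
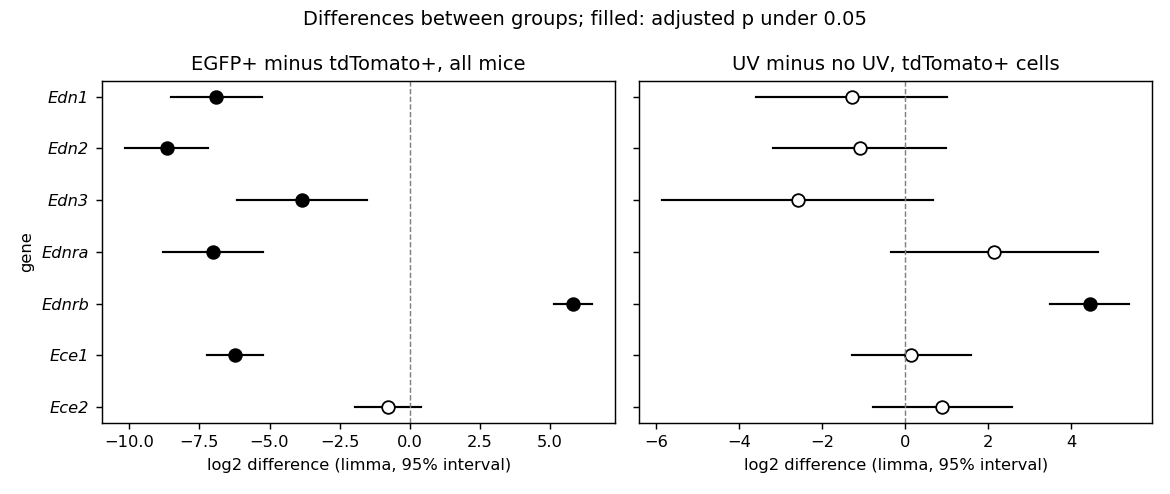
Log2 difference of each endothelin gene between EGFP+ and tdTomato+ cells over all 4 mice (left) and between UV and no UV in tdTomato+ cells (right), with limma's 95% interval. Filled points passed an adjusted p of 0.05: all but Ece2 on the left, and Ednrb alone on the right.

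To set ligands and receptors side by side, levels were divided by the length of each gene's merged exons. In tdTomato+ cells the 3 ligands summed to 482 and 611 normalized reads per kb in mice 1 and 2, and to 222 and 262 in mice 3 and 4. The receptors summed to 38.3 and 25.3 per kb without UV and to 248 and 253 with UV. Receptor level was thus 0.0794 and 0.0413 of ligand level in the mock mice, and 1.12 and 0.965 of it in the UV mice. In each of the 4 libraries Edn2 made up most of the ligand level, 74.3% to 80.9%, followed by Edn1 at 17.0% to 24.0% and Edn3 at 0.13% to 5.99%. The Ednrb share of the receptor level was 24.6% and 15.9% without UV and 55.4% and 56.0% with UV.

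EGFP+ cells showed the receptor side only. Their receptor level was 1294 to 2334 per kb and at least 99.96% of it was Ednrb, whereas their ligand level was at most 0.39 per kb. On the enzyme side Ece1 made up 58.8% to 75.3% of the level per kb in tdTomato+ cells. In EGFP+ cells it made up 11.7% and 15.5% without UV and 0.80% and 0.81% with UV, the rest being Ece2.

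**Figure D3:**
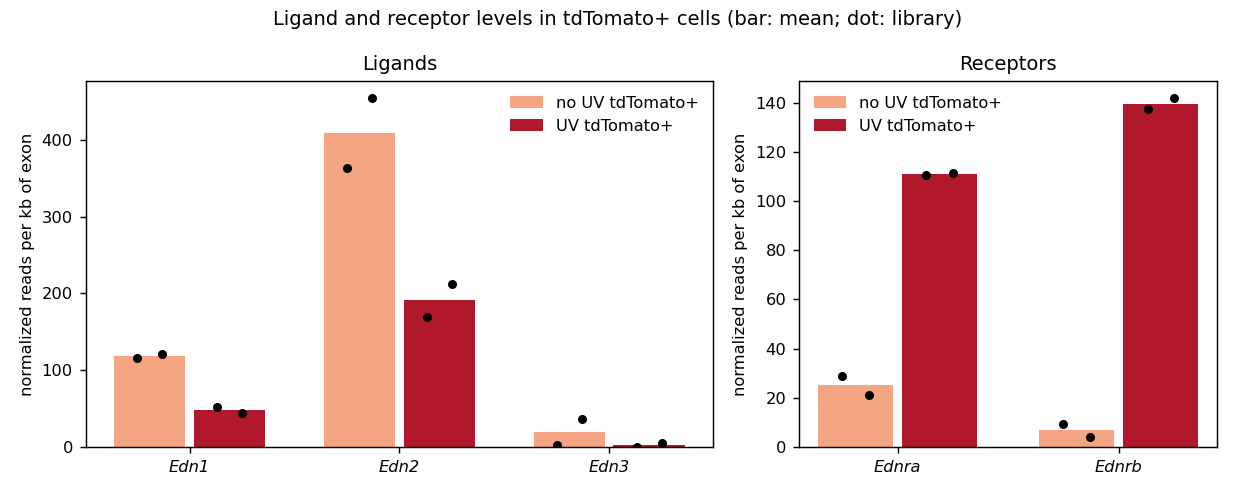
Normalized reads per kb of exon for the ligands (left) and receptors (right) in tdTomato+ cells without and with UV; bars are means of 2 libraries and dots are libraries. The dots of Edn1 and Edn2 are lower with UV and those of Ednra and Ednrb are higher with UV, with no overlap, and only the Ednrb difference passed the test. The share of all genes without overlap was not counted.

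The question put to the UV arms was whether these genes changed in either population. In tdTomato+ cells Ednrb rose by 4.45 ± 0.42 on the log2 scale (limma, adjusted p = 0.0101, n = 2 libraries per arm), from a mean of 28.6 to 596 normalized reads, a 20.8-fold ratio. It was the only one of the 7 genes called, 1 higher and 0 lower, where 0.549% of all tested genes were called, 0.338% higher and 0.211% lower. The rise was 5.04 without mouse 1 (adjusted p = 0.00245) and was called in each of the 8 other settings that left no library out. When 1 of the 8 libraries was left out, the difference stayed between 3.86 and 5.04, but limma's adjusted p was under 0.05 in 2 of 8 such fits and reached 0.169 in the others.

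The other 6 genes did not pass in tdTomato+ cells. Among the ligands, log2 differences were -1.29 ± 1.01 for Edn1 (limma, adjusted p = 0.602), -1.09 ± 0.91 for Edn2 (0.629) and -2.60 ± 1.42 for Edn3 (0.4996). The Edn3 value moved to -4.31 without mouse 1 (adjusted p = 0.312) and ran from -4.31 to -0.89 when 1 library was left out, lowest without the tdTomato+ library of mouse 1 and nearest to 0 without that of mouse 2. The libraries of the arms did not overlap for Edn1 and Edn2, whose UV means were 0.406 and 0.468 of their mock means. For the other receptor, Ednra, the difference was 2.15 ± 1.09 (limma, adjusted p = 0.455) with a 95% interval of -0.35 to 4.65 and a 4.43-fold ratio of means, also with no overlap. For the enzymes it was 0.15 ± 0.62 for Ece1 (limma, adjusted p = 0.954), whose arms overlapped, and 0.89 ± 0.73 for Ece2 (0.624), whose arms did not. The intervals of Edn1 (-3.59 to 1.00) and Edn2 (-3.18 to 0.99) span both directions. With 2 libraries per arm, arms can fail to overlap without any effect of UV. The share of all genes without overlap was not counted in either population, so a lack of overlap is description only.

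Markers of several cell types moved between these tdTomato+ libraries. Of the 5 melanocyte markers, 4 were called higher with UV (Dct, Tyrp1, Pmel and Mlana), and the ratios of means over all 5 ran from 5.51 for Tyr to 16.7 for Tyrp1, beside 20.8 for Ednrb. Set against the summed melanocyte markers, Ednrb was at 0.75% and 0.74% of that sum in the mock tdTomato+ libraries and at 2.60% and 1.38% in the UV ones, where the EGFP+ libraries were at 1.08% to 1.74%. The tdTomato+ libraries held 1.04% and 0.40% of the marker sum of the EGFP+ cells of the same mouse without UV, and 4.08% and 7.28% with UV. For Ednrb these shares were 0.73% and 0.17% without UV and 9.35% and 7.68% with UV. The part of melanocyte RNA in the Ednrb result was not tested.

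**Figure D4:**
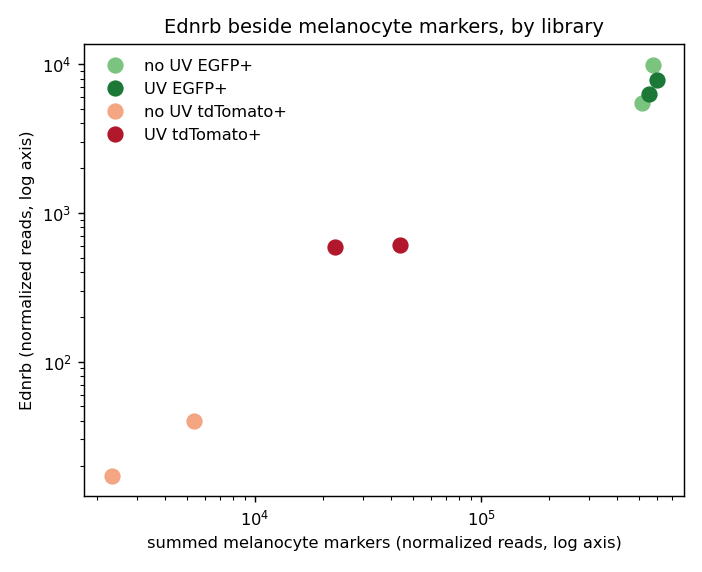
Ednrb against the summed melanocyte markers (Dct, Tyr, Tyrp1, Pmel, Mlana) in each of the 8 libraries, both in normalized reads on log axes. The UV tdTomato+ libraries, at 22587 and 43689 marker reads, lie above the mock tdTomato+ libraries on both axes and below all EGFP+ libraries.

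Among the other cell types, the suprabasal keratins fell with UV in tdTomato+ cells, Krt1 from 5873.5 and 10598 normalized reads to 54.1 and 16.7 and Krt10 from 12359 and 18394 to 673 and 351 (2 of 7 keratinocyte markers called, limma adjusted p = 0.0133 and 0.0101). The other keratinocyte markers were not called. Their UV means were 0.503 (Krt15), 0.737 (Col17a1), 0.772 (Krt5), 0.881 (Trp63) and 1.11 (Krt14) of their mock means. The keratinocyte sum was 227011 and 301889 without UV and 216849 and 204160 with UV. The part of these markers in the lower Edn1 and Edn2 values was not tested. Cd207, a Langerhans cell marker, was at 0 in both UV libraries after 1237 and 271 in the mock ones (1 of 6 leukocyte markers called). Endothelial markers, none of 6 called, summed to 192 and 42.8 without UV and to 773 and 93.7 with UV. Their median log2 difference was 2.09, beside 2.15 for Ednra. Means without and with UV were 33.5 and 219.8 for Pecam1, 3.42 and 52.8 for Cdh5, 2.89 and 22.5 for Kdr, and 6.73 and 42.2 for Tie1. The arms overlapped for Tek and Emcn. Mural and smooth muscle markers, also none of 6 called, summed to 587 and 434 without UV and to 659 and 154 with UV. Fibroblast markers, none of 6 called, summed to 17429 and 14715.5 without UV and to 8276 and 11772 with UV, but they did not move together. Means of Lum, Col1a1, Col1a2 and Col3a1 were lower with UV, Dcn was alike (8292 and 8301), and Pdgfra was higher (32.7 and 154). Dermal papilla markers, none of 5 called, summed to 743 and 902 without UV and to 2149 and 3667 with UV, a sum carried by Wif1 (means 713 and 2801 normalized reads). Rspo3 (71.8 and 60.6) and Hhip (31.7 and 31.4) were not higher with UV, and Corin and Alpl had few reads. Schwann cell markers, none of 4 called, summed to 1023 and 393 against 1537 and 1187. The dermal papilla, Schwann cell and melanocyte marker sums had both UV libraries above both mock libraries, as Ednra did. So did Pdgfra among the fibroblast markers, and Pecam1, Cdh5, Kdr and Tie1 among the endothelial markers. The part of these markers in the Ednra values was not tested.

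In EGFP+ cells none of the 7 genes was called with UV, where 3 of all tested genes were (0.0166%, all lower). At an unadjusted p under 0.05 these were 1 of the 7, Ece1, and 1873 of all genes. Ednrb differed by -0.08 ± 0.42 on the log2 scale (limma, adjusted p = 1, n = 2 libraries per arm) with a 95% interval of -1.03 to 0.88, and its arms overlapped. Ece2 differed by -0.66 ± 0.73 (limma, adjusted p = 0.808), and the 2 UV libraries lay on either side of the mock ones. Without the EGFP+ library of mouse 3 it became -1.97 and was called (adjusted p = 0.0283), and without that of mouse 4 it was 0.66 (adjusted p = 0.782). Edn1, Edn2, Edn3 and Ednra had at most 4 reads in an arm and no fold is given for them.

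Ece1 in EGFP+ cells was the member closest to the threshold. Its 188 reads without UV stood against 9 with UV, the means were 82.6 and 3.89 normalized reads, and the arms did not overlap. The log2 difference was -4.37 ± 0.62 with a 95% interval of -5.80 to -2.95, and it missed the threshold in limma (adjusted p = 0.0788, n = 2 libraries per arm). On the recovered whole reads it was called by edgeR's quasi-likelihood test (adjusted p = 0.00106, 120 genes called) and by DESeq2 (adjusted p = 1.73e-09, 352 genes called), and in none of the 7 other settings that left no single library out, where adjusted p ran up to 0.687. Quantile normalization moved the difference to -2.53 (adjusted p = 0.112). Without the EGFP+ library of mouse 3 it was -5.32 and called (adjusted p = 0.000889), and without that of mouse 4 it was -3.43 (adjusted p = 0.0834). The keratinocyte marker sum in these EGFP+ libraries was of one size in both arms, 660 and 690 without UV and 575 and 846 with UV. Fibroblast markers summed to 166 and 141 without UV and to 10.1 and 246 with UV, and leukocyte markers to 322 and 150 against 47.8 and 5.39. Mouse 4 had the fewest genes with a read, 11186 against 14503 to 15867 in the other EGFP+ libraries. The part of these in the Ece1 values was not tested.

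Whether UV acted differently in the 2 populations was tested directly, as the UV difference in EGFP+ cells minus that in tdTomato+ cells. In limma none of the 7 genes was called, and 1 of all tested genes was (0.00554%, lower). At an unadjusted p under 0.05 these were 2 of the 7, Ednrb and Ece1, and 1810 of all genes. Ednrb gave -4.53 ± 0.59 (adjusted p = 0.117 in limma), Ece1 gave -4.52 ± 0.88 (0.225) and Ece2 gave -1.55 ± 1.04 (0.649). On the recovered reads edgeR, which called 75 genes in all, called Ednrb (adjusted p = 0.000262) and Ece1 (0.00521), as did DESeq2 (8.53e-12 and 1.27e-07), which called 282. Quantile normalization, with 4 genes called, called Ednrb (-5.70, adjusted p = 0.0317) and moved Ece1 to -2.60 (adjusted p = 0.231). Without mouse 1, where 2063 genes were called, Ednrb was called (-5.54, adjusted p = 0.00478) and Ece1 was not (-4.21, adjusted p = 0.311). Without the EGFP+ library of mouse 3, where 1018 genes were called, Ednrb, Ece1 and Ece2 were called (-4.36, -5.47 and -2.86, adjusted p = 0.0168, 0.00589 and 0.0291). Without the tdTomato+ library of mouse 1 Ednrb alone of the 7 was called (-5.12, adjusted p = 0.012). In the other 6 fits that left out 1 library none of the 7 was. The UV comparison in tdTomato+ cells and this difference share the same tdTomato+ libraries.

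The orders of the 4 groups followed from these values. For Edn1 and Edn2 the order was mock tdTomato+, UV tdTomato+, then EGFP+ cells of both arms at or near 0. For Ednrb the EGFP+ arms came first and overlapped, then UV tdTomato+, then mock tdTomato+ cells. Ednra ran from UV tdTomato+ through mock tdTomato+ to EGFP+ cells. Ece1 had overlapping tdTomato+ arms above mock EGFP+ and then UV EGFP+ cells, and for Ece2 only the UV tdTomato+ cells stood clear of the overlapping rest. Edn3 had overlapping tdTomato+ arms above EGFP+ cells, whose libraries were all at 0.

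The wider pathway was read from lists of peptidases, transducers and regulators. Of their 55 tested genes 36.4% were called between the populations, beside 28.8% of all genes (9.63% higher and 19.2% lower), so counts such as 2 of 7 or 2 of 8 lay near the share over all genes. Of 7 tested peptidases that process or degrade endothelins, 1 was called higher and 1 lower in EGFP+ cells, with a median log2 difference of -0.10. Ctsa, the lysosomal carboxypeptidase cathepsin A, was higher by 0.50 ± 0.15 (limma, adjusted p = 0.0342, means 4223 and 2962 normalized reads). Pcsk6, a proprotein convertase, was lower, at -4.58 ± 0.69 (adjusted p = 0.00151 in limma, means 9.27 and 114). The convertase Furin was not called, at 0.58 ± 0.38.

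Of 12 G protein and phospholipase C genes, 5 were called higher and 1 lower in EGFP+ cells (median 0.55). Those higher were Gnas, the stimulatory alpha subunit, by 1.33 ± 0.11, Gnai2, an inhibitory one, by 0.78 ± 0.13, Gna13 by 1.53 ± 0.33, Gna11 by 0.57 ± 0.17, and the phospholipase Plcb4 by 2.98 ± 0.63 (limma, adjusted p from 7.34e-05 to 0.0399). Plcb4 stood at 126 to 299 normalized reads in EGFP+ cells and at 9.99 to 61.6 in tdTomato+ cells. Gnai1 was lower, at -6.14 ± 0.64 (limma, adjusted p = 0.000209). Gnaq, the classical partner of endothelin receptors, was not called, at 0.53 ± 0.34.

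Of 8 calcium release and protein kinase C genes, 0 were called higher and 2 lower, Prkcd by -1.36 ± 0.21 and Prkch by -6.31 ± 0.48, both protein kinase C isoforms (limma, adjusted p = 0.00151 and 3.76e-05). The median of this list was -0.71. Of 11 tested genes of receptor desensitization 1 was called, Rgs2, a brake on Gq signalling, which was lower at -5.65 ± 0.76 (limma, adjusted p = 0.00079) with 9.70 to 194 normalized reads in EGFP+ cells against 3243 to 5320 in tdTomato+ cells.

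Of 9 MAP kinase and CREB genes, 3 were called higher, among them Map2k1 and Rps6ka3, and 1 lower (Rps6ka1), with a median of 0.40. The kinase Rps6ka3 was higher by 1.39 ± 0.20 and its relative Rps6ka1 was at -2.69 ± 0.36 (limma, adjusted p = 0.00129 and 0.000804). Of 8 regulators of these genes, Sox10, Mitf and Pax3, transcription factors of the melanocyte lineage, were higher by 5.81 ± 0.52, 4.21 ± 0.30 and 5.82 ± 0.60, and Hif1a and Fos were lower (median -0.15). In tdTomato+ cells Sox10 had 34.2 and 4.28 normalized reads without UV and 129 and 142 with UV, a difference that did not pass (limma, adjusted p = 0.106). Of the 55 tested genes of the 6 lists, limma called 0 for UV in EGFP+ cells (8, or 14.5%, at an unadjusted p under 0.05, beside 10.4% of all genes; edgeR called 1, Gnai1, and DESeq2 called 3). For UV in tdTomato+ cells limma called 0 as well (7, or 12.7%, at an unadjusted p under 0.05, beside 13.4% of all genes; edgeR called 1, Sox10, and DESeq2 called 3). For the difference between the UV changes limma and edgeR called 0 (7, or 12.7%, at an unadjusted p under 0.05 in limma, beside 10.0% of all genes; DESeq2 called 3).

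The genes whose pattern over the 8 libraries was most like that of each member were ranked by Pearson's r of log2(normalized reads + 1) among 14046 genes, a description that rests largely on the split between the populations. Ednrb was most like Nceh1 (0.994), Ptgds (0.994) and Rpn1 (0.993). Ptgds, prostaglandin D synthase, ran at 111 to 343 normalized reads in mock tdTomato+ cells, 2074 to 2838 in UV tdTomato+ cells and at 28786 or more in EGFP+ cells. Edn1 was most like Apoc1, Cwh43 and the hair keratin Krt32 (all 0.997 to 0.998), and Edn2 like Art4, Fgd2 and Smad1 (all 0.999). Krt32 stood at 375 and 448 in mock and at 97.4 and 104 in UV tdTomato+ cells. Ednra was most like Fam167a (0.995), Chodl (0.994) and Fcmr (0.990), and Edn3 like Als2cr12, Sprr2j-ps and Kif5c (0.992, 0.992 and 0.975). The genes like Edn3 were at or near 0 in EGFP+ cells. Their highest values in tdTomato+ cells were 8.56, 58.5 and 38.5 normalized reads, so these r values rest on few reads. Among the genes most like Ece1 were Palld and Msx2 (0.997 and 0.995). In EGFP+ cells these had 81.8 to 94.0 and 19.0 to 21.6 normalized reads without UV, against 2.16 to 15.1 and 0 to 1.68 with UV. Ece2 was most like Wrap53, Scfd1 and Ubox5 (0.984, 0.979 and 0.978).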

How the data were processed

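RNA of sorted EGFP+ and tdTomato+ cells from 4 mice was sequenced after poly(A) selection with an unstranded kit, per the labels' protocols. The submitters' processing notes name FastQC, TopHat2 2.0.12, Cufflinks 2.2.1, DESeq2 1.14.1 and mm10; no source used here names the read counter or its annotation. The deposited signal values are normalized reads: whole numbers divided by 1 size factor per library (0.701 to 1.20), and 195368 of 195368 values came out whole within 0.01 (100%). Per the file headers, the authors also deposited DESeq2's log2 fold changes, their errors, a score and p-values per gene, used only where named.

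As the values are normalized, limma 3.58.1 (R 4.3.3) was the test, on log2(value + 1), with a mean per group, all 8 libraries in 1 fit and a trended prior. The 18046 genes tested had a group mean of 1 or more, and 27 entries named by a date were dropped first. Calls are Benjamini-Hochberg adjusted p under 0.05 over all genes. edgeR 4.0.16 and DESeq2 1.42.0 on recovered reads, a pseudocount of 0.1, other filters, quantile and other scaling, only the libraries compared, a mouse block and leaving out libraries were alternatives. Leaving out mouse 1 and pooling the UV arms were chosen after seeing the data. With 2 mice an arm, p-values rest on a spread pooled over the groups. Only the limma test of UV in tdTomato+ cells was tried on simulated counts, drawn with a fixed spread and no differences between mice.

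The members and lists were chosen with earlier results of these data known. Named genes were the 7 members, up to 4 called genes of each list by p (others named as not called, or beyond 4, were chosen after their values were seen), and the 3 genes of most similar pattern per member; 2 genes that this rule takes in are not reported here. EGFP+ and tdTomato+ libraries of 1 mouse are paired by the labels. The correlation of their deviations from group means was 0.0873 without and 0.0560 with UV, against 0.0551 and 0.0757 for libraries of different mice that share a replicate number. Exon lengths and gene positions came from GENCODE M21 (GRCm38, the build named mm10), and promoter windows from RefSeq, GRCm38.p6.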

Additional observations from a re-analysis of the deposited data

How the results depend on the processing

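With the mouse as a replicate block, the paired comparison of EGFP+ with tdTomato+ cells called 5212 genes and 6 of the 7 endothelin genes, and the difference of UV changes called 1 gene and 0 members, so the block changed no call of a member. Quantile normalization and rescaling without the 20 most abundant genes moved the median difference between the populations by 0.35 and 0.21 (log2), and the directions of the 7 members held under both. Over the fits that left out 1 library, the populations differed in 3460 to 6586 genes, UV in EGFP+ cells gave 0 to 1604 genes and 0 to 2 members, UV in tdTomato+ cells 0 to 1770 genes and 0 to 1 members, and the difference of UV changes 0 to 1296 genes and 0 to 3 members. In these fits the UV difference in EGFP+ cells ran from -0.50 to 0.35 for Ednrb and from -1.97 to 0.66 for Ece2, with a change of direction in both. For UV in EGFP+ cells (3 genes, 0 members) the counts were 1 gene with a pseudocount of 0.1, 0 with quantile normalization, 0 with only the libraries compared, 120 genes and 1 member with edgeR, 352 genes and 1 member with DESeq2 and 818 genes without mouse 1. For UV in tdTomato+ cells (99 genes, 1 member) they were 29 with a pseudocount of 0.1, 183 with only the libraries compared, 236 with edgeR, 618 with DESeq2 and 2005 without mouse 1. For the difference of UV changes (1 gene, 0 members) they were 0 with a pseudocount of 0.1, 0 with no filter, 4 genes and 1 member with quantile normalization, 2 genes with the other rescaling, 75 genes and 2 members with edgeR, 282 genes and 2 members with DESeq2, and 2063 genes and 1 member without mouse 1. The cause of these shifts was not tested. Leaving out a library or mouse 1 leaves an arm with 1 library, which is then assumed to vary like the other groups. At these depths a gene with 0 reads in the 4 EGFP+ libraries may still have a low level, and 2 libraries per arm leave wide intervals for Edn1, Edn2, Edn3 and Ednra.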
